A study of Mus musculus with 14 samples.

Results

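The genes described here encode mitochondrial ribosomal proteins. They were taken as all protein-coding genes whose symbol begins with Mrpl or Mrps followed by a number, which gave 78 genes among the 54532 genes, 22046 of them protein coding, in the deposited tables. Of these 78, 77 passed the filter on low counts and were among the 15458 genes tested. The symbol names the subunit to which a protein was first assigned (L for large, S for small), and it does not always name the subunit in which it sits.

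Mitochondria carry their own ribosomes, which translate only the few proteins encoded in mitochondrial DNA, core subunits of the respiratory chain and of the ATP synthase. All mitoribosomal proteins are nonetheless encoded in the nucleus, translated in the cytosol and imported, then assembled with ribosomal RNAs made inside the organelle. Many descend from bacterial ribosomal proteins and others are found only in mitochondrial ribosomes, and skeletal muscle depends on them because of its demand for oxidative ATP production.

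RNA-seq libraries were made from skeletal muscle (soleus and gastrocnemius, with no record per library of which) of male FVB/N mice. All mice carried Tet-O-Myc, a human MYC transgene under a tetracycline-controlled promoter; EC-Myc OE mice also carried the Cdh5-tTA transactivator, which drives it in endothelial cells, and control (CT) littermates lacked the transactivator. Overexpression was induced by removing the doxycycline diet at 4 to 6 weeks of age, and mice received a control diet (CTD) or a western, high-fat diet (WD) for 20 weeks as the labels and methods have it, a duration that differs from the one in the study's account of the muscle transcriptome. The groups were CT on CTD (CT-CTD, n = 3), CT on WD (CT-WD, n = 3), EC-Myc OE on CTD (OE-CTD, n = 4) and EC-Myc OE on WD (OE-WD, n = 4), and a number after a group name is the replicate. The labels present the replicates as separate samples without stating separate animals, so p-values measure the spread between these samples. The sample identifiers of all 4 OE-WD libraries end in 1 shared number and those of OE-CTD 1 to 3 in another, with OE-CTD 4 apart, while CT-CTD 1 and CT-WD 1 carry consecutive numbers far from the run held by the other 4 CT libraries. What these numbers stand for is not given, and the shared numbers cannot be told apart from diet in the EC-Myc OE mice or from genotype. A figure legend of the study gives group sizes that do not match the labels. Should OE-CTD and CT-WD carry each other's names, the diet comparison in CT and the genotype comparison on CTD would change places, as would the other 2 comparisons, and the interaction would stay the same.

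Libraries held 21833839 to 28519159 counts (median 24931111.5). All 14 skeletal muscle markers of the list used were detected. The 13 protein genes of mitochondrial DNA took 9.34% to 14.7% of the counts, with the 2 highest shares in OE-CTD 4 (14.7%) and OE-WD 4 (14.2%). Mouse Myc, the endogenous gene, had a log2 fold change of 0.16 in OE-CTD against CT-CTD (edgeR adjusted p = 0.863) and of -0.49 in OE-WD against CT-WD (edgeR adjusted p = 0.442), and human MYC was not analysed here. Since whole muscle was sequenced, fewer cells of a type and less RNA per cell cannot be told apart in any value below.

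The members lay on 17 chromosomes of GRCm38, with the largest numbers on chromosome 11 (11 genes), chromosome 17 (8 genes) and chromosome 6 (7 genes). Promoter windows from 250 bases before to 50 bases after the start were found in RefSeq (GRCm38.p6) for 69 of the 78 members, in 75 windows with a median GC content of 58.7%, against 52.7% over 32851 windows of all genes. Each window was searched on both strands for short motifs. The ETS motif CCGGAAG, the letters read by factors such as GABP (NRF-2), stood in 26 of the 69 members (37.7%), against 18.9% of 10476 tested protein-coding genes and 9.93% of all 27025 genes with a window. It also stood in 35.8% of 67 cytosolic ribosomal protein genes and 24.7% of 73 nuclear oxidative phosphorylation genes, so the high share was not particular to members. The YY1 motif AAGATGGCG stood in 8 members (11.6%, against 3.38% of tested genes) and the NRF1 motif, GCGCA joined to its own reverse complement, in 3 (4.35%, against 2.19%). Of the 73 oxidative phosphorylation genes, 8 had the YY1 letters and 7 the NRF1 letters. Of the 67 cytosolic ribosomal protein genes, 4 had the YY1 letters and 2 the NRF1 letters. The canonical E-box CACGTG, the letters bound by Myc with Max, stood in 5 members (7.25%, against 11.6% of tested genes), namely Mrpl2, Mrpl20, Mrpl36, Mrpl37 and Mrps18c. The GC box GGGCGG stood in 34 members (49.3%, against 67.7%). A match describes letters in a window and is not evidence of binding.

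The stretches below show the E-box of 2 members and the ETS letters of 6 members. They overlap no annotated exon, and the genes were chosen after their values were seen. Stretches with ETS letters and no annotated exon were also found for Mrpl22 and Mrpl34 and are not printed. Each reads 5′ to 3′ on the strand of the gene, and capitals mark the motif, which reads CTTCCGG where the ETS letters lie on the other strand. They are Mrpl2 at chr17:46646075-46646110 (plus strand), Mrpl20 at chr4:155802830-155802865 (plus), Mrpl17 at chr7:105811303-105811337 (minus), Mrpl43 at chr19:45006443-45006513 (minus, with 2 matches), Mrpl48 at chr7:100583143-100583179 (minus), Mrpl52 at chr14:54426847-54426883 (plus), Mrps22 at chr9:98601680-98601705 (minus) and Mrps27 at chr13:99344723-99344759 (plus). The Mrpl48 stretch lies before a start inside the gene, which runs from 100545751 to 100608301. Windows at the other starts of Mrpl48 held no ETS match.
Mrpl2: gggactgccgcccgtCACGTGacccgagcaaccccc
Mrpl20: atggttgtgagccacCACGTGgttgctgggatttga
Mrpl17: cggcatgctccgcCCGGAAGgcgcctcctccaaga
Mrpl43: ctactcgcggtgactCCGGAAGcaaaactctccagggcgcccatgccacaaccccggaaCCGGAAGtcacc
Mrpl48: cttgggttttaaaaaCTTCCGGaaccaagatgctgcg
Mrpl52: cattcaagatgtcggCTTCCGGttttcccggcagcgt
Mrps22: caaaaacctctcgagCCGGAAGttgc
Mrps27: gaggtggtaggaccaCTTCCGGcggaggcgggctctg

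Levels between genes were compared in FPKM, read counts scaled by gene length and by library size. The median member had 13.4 FPKM, against 2.39 FPKM over all tested genes, and each of the 77 tested members lay above that all-gene median. Cytosolic ribosomal protein genes (91 by symbol) had a median of 54.2 FPKM and nuclear genes of oxidative phosphorylation (91 by symbol) one of 119 FPKM. Members were thus expressed well below the ribosomal proteins of the cytosol and below the respiratory chain they serve. Members spanned a 30.6-fold range. The highest were Mrps21 (78.9 ± 8.03 FPKM, SD, n = 14), a homologue of bacterial S21, Mrpl2 (60.7 ± 4.76), a homologue of L2 at the peptidyl transferase centre, Mrpl14 (60.2 ± 6.17), of L14 at the subunit interface, Mrpl34 (58.0 ± 8.86) and Mrps28 (56.2 ± 6.497). These were the 5 members over 50 FPKM. At the low end were Mrpl19 (2.58 ± 0.221 FPKM), Mrps35 (3.07 ± 0.199), Mrps30 (3.26 ± 0.265), Mrpl48 (3.54 ± 0.463) and Mrps22 (3.55 ± 0.280), the last a small-subunit protein whose loss causes mitochondrial disease in humans, and 10 tested members lay under 5 FPKM. These SDs run over all 14 libraries. Neighbours among these 10 differed by less than the larger of their SDs, except that Mrps21 lay above Mrpl2, and Mrpl19 below Mrps35, by more than either SD. The annotated length used as divisor was 607 to 1170 bases for the 5 highest and 3991 to 8631 bases for the 5 lowest. The median over tested members was 2255 bases. In CPM, which leaves length out, Mrpl34 (26.9 to 43.2) and Mrpl48 (22.2 to 33.1) overlapped. The order by FPKM thus rests on the annotated length as well as on counts.

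**Figure D1:**
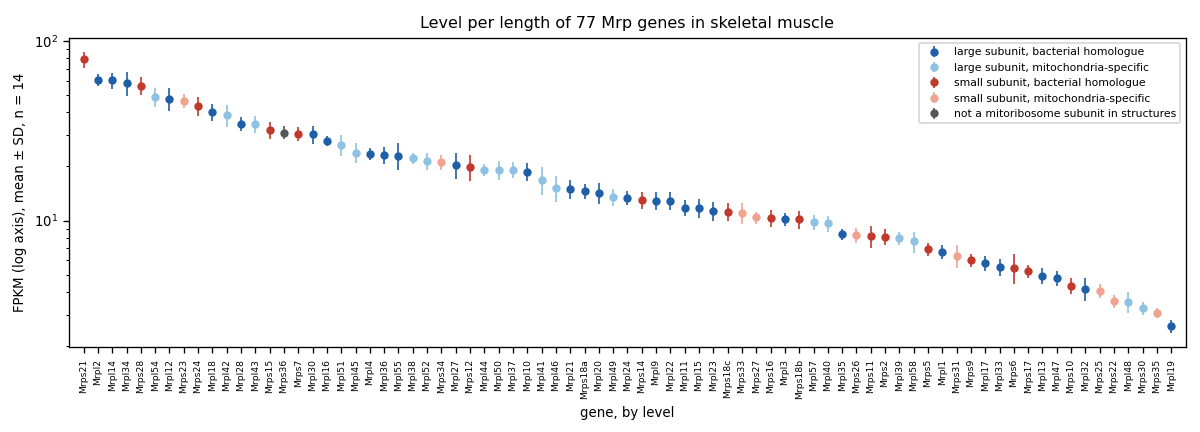
FPKM of the 77 tested members on a log axis, as mean and SD over 14 libraries, ordered by level and coloured by subunit class. Mrps21 (78.9) leads and Mrpl19 (2.58) is lowest, and genes of each class are spread along the order.

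By class, the 31 large-subunit homologues of bacterial proteins had a median of 14.3 FPKM and the 20 mitochondria-specific large-subunit genes, 19 of them tested, one of 18.03 FPKM. The 17 small-subunit homologues had a median of 10.4 FPKM and the 9 mitochondria-specific small-subunit genes one of 8.31 FPKM. Mrps18a and Mrps30 were counted with the large subunit, where structures place both proteins. Mrps36 (30.9 FPKM), which structures do not place in the mitoribosome and which belongs to the 2-oxoglutarate dehydrogenase complex, stood in a class of its own. Summed CPM of the 50 tested large-subunit genes over that of the 26 small-subunit genes was 2.35 to 2.51 in the 14 libraries (median 2.42), so the mRNA proportion of the subunits varied little from library to library.

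Mrpl53, a mitochondria-specific large-subunit gene (chr6:83109040-83109939, plus strand), had 0 counts in all 14 libraries. Of its exonic bases 88% lie within exons of Gm42688 on the same strand, which itself had 2 to 17 counts. Whether its reads were left out because they fall in both genes was not tested, so the 0 is no evidence of its level, and the gene is left out of every comparison below. Exonic overlap with another gene was found for 33 members in all, over 50% of bases for Mrpl53, Mrps34 (77.8%) and Mrps25 (69.8%). The strand setting of the counting is not given in the sources used here, so reads of these genes and of their overlapping partners cannot be told apart.

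Members varied little between libraries of a group. Within groups, the CPM of the median member had a coefficient of variation of 9.33%, against 15.8% for the median tested gene. The steadiest were Mrps35 (5.66%) and Mrpl35 (5.96%), and the most variable Mrpl41 (17.8%) and Mrpl55 (16.6%). Each tested member had 109 to 3723 counts in a library (median 761), so counting error weighed most on the members with the lowest counts.

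Members shared much of their variation across libraries. The correlation of a member's log2 CPM with the median of the other members over 14 libraries had a median of 0.654, and 64 of 77 members (83.1%) were over 0.5, against 14.1% of other tested genes. After group means were removed the median was 0.616. Mrps7 (0.919), a homologue of bacterial S7, and Mrpl45 (0.914), which lies near the exit of the nascent-chain tunnel and anchors the ribosome to the inner membrane, followed the other members most closely. Mrps2 (-0.013), Mrpl19 (-0.103) and Mrpl10 (0.0473) hardly followed them. These correlations share the libraries and their depth, and are descriptions without a test.

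**Figure D2:**
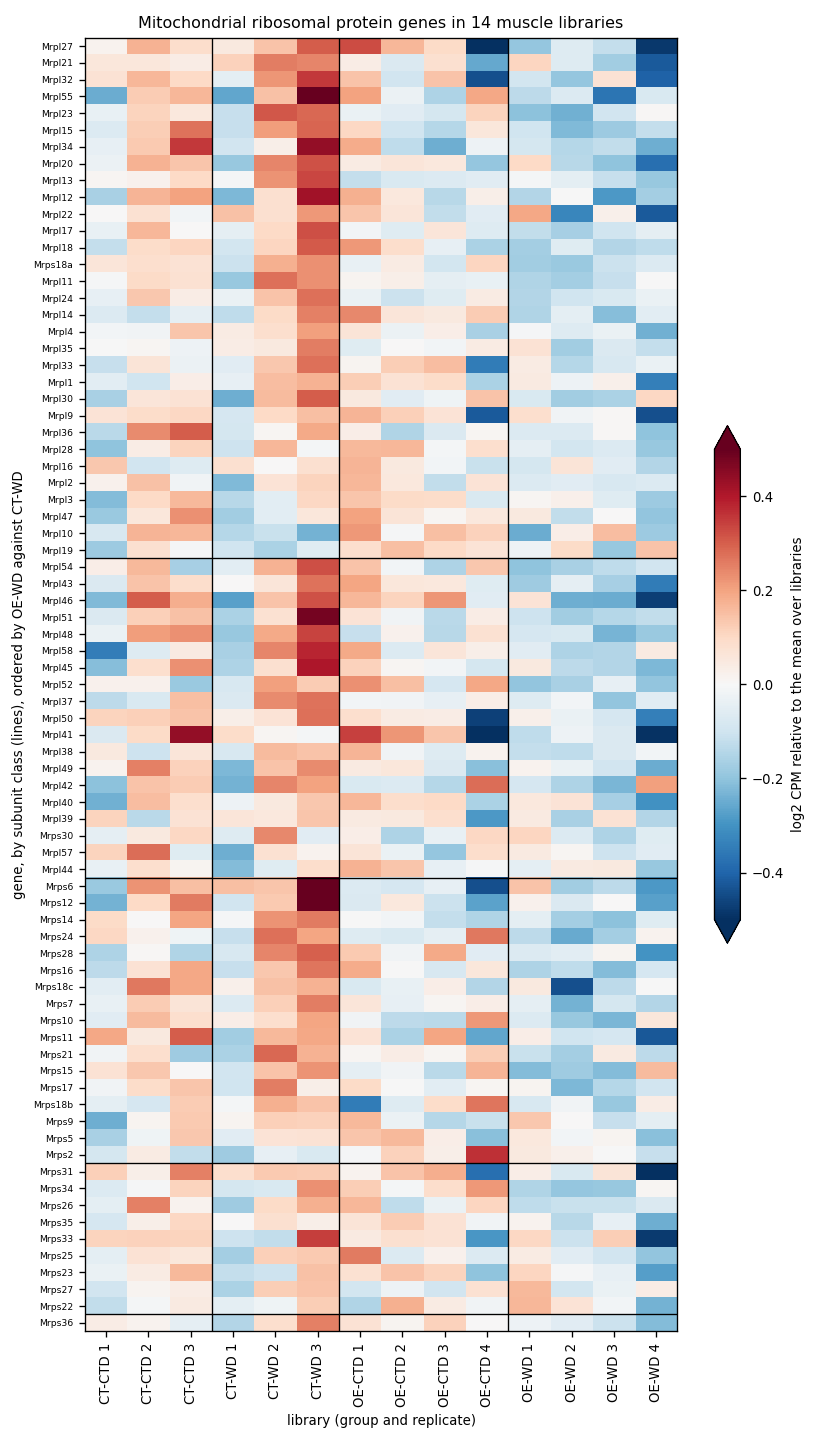
Log2 CPM of the 77 tested members (rows, by subunit class) in 14 libraries (columns), as the difference from the gene's mean. CT-WD 3 is high and OE-WD 4 low across most rows, and CT-WD 1 is low beside the other CT-WD libraries.

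Summed over members, CPM was 2685, 2957 and 2987 in CT-CTD 1 to 3, and 2606, 3056 and 3286 in CT-WD 1 to 3. In OE-CTD it was 2950, 2813, 2757 and 2807, and in OE-WD 2695, 2601, 2591 and 2575. The 4 OE-WD libraries lay below every OE-CTD library, and CT-WD held both a library near the OE-WD level and the highest libraries of the series. On the log2 scale, the median over members of the difference from the gene's mean over libraries was -0.05 to -0.15 in OE-WD, -0.01 to 0.07 in OE-CTD, -0.05 to 0.10 in CT-CTD and -0.09 to 0.22 in CT-WD, with a pooled within-group SD of 0.0872. This median was -0.09 in CT-WD 1, inside the range of OE-WD, and 0.12 and 0.22 in CT-WD 2 and CT-WD 3.

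**Figure D3:**
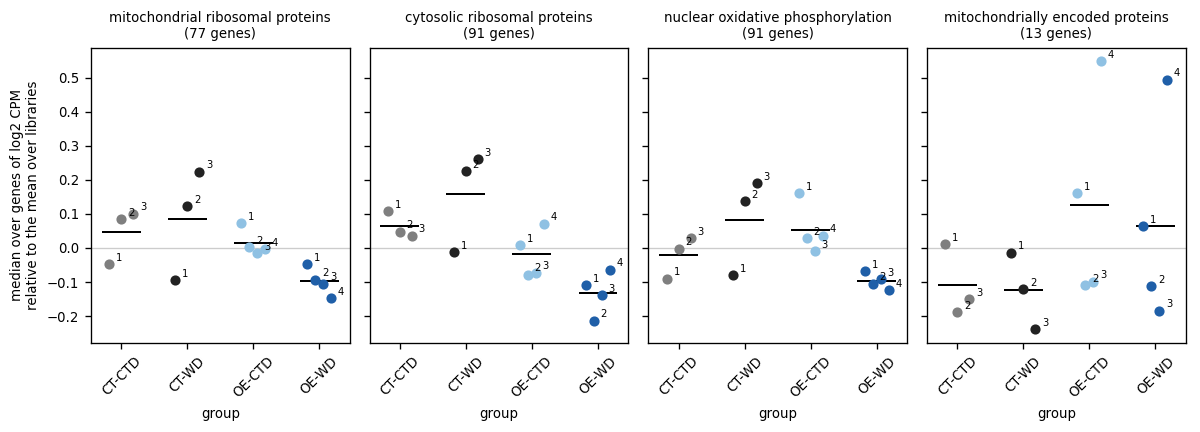
Median over the genes of each list of the difference in log2 CPM from the gene's mean, with points for libraries (replicate number beside), bars for group means, and panels for mitochondrial ribosomal proteins, cytosolic ribosomal proteins, nuclear oxidative phosphorylation and the proteins of mitochondrial DNA. OE-WD lies low in the first 3 panels, CT-WD 1 lies apart from CT-WD 2 and 3 in the same panels, and OE-CTD 4 and OE-WD 4 stand high in the last.

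The first comparison asked how endothelial Myc overexpression stood against control muscle on WD. In OE-WD against CT-WD, 72 of 77 members had a lower mean in OE-WD (49.1% of all tested genes did), and the median log2 fold change was -0.20, or -13.0%, against 0.0056 over all tested genes. No member passed an adjusted p of 0.05, where 0.725% of all tested genes did. At an unadjusted p under 0.05, 28 members (36.4%) were lower, against 8.42% of all tested genes, and none was higher, against 8.44%. The OE-WD libraries lay below all CT-WD libraries for 12 members (15.6%, against 5.54% of all tested genes), namely Mrpl13, Mrps14, Mrpl43, Mrpl21, Mrpl54, Mrpl17, Mrpl24, Mrpl27, Mrpl4, Mrpl50, Mrps31 and Mrpl41, and above them for none (6.06% of all tested genes). A member that was not called after adjustment over all genes is not thereby shown to be unchanged.

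The smallest p was that of Mrpl13, a homologue of bacterial L13 (chr15:55534094-55557748, minus strand). Its CPM was 35.5, 41.6 and 44.8 in CT-WD and 35.3, 34.4, 32.8 and 31.2 in OE-WD. The groups did not overlap, although CT-WD 1 and OE-WD 1 were nearly level. The log2 fold change was -0.28 (SE 0.0822, edgeR adjusted p = 0.112). In CT-CTD the gene stood at 35.8, 36.1 and 38.1 CPM and in OE-CTD at 32.7, 33.7, 33.9 and 34.2, so that both EC-Myc OE groups lay below both CT groups.

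Mrps6, a homologue of bacterial S6 (chr16:92058270-92112227, plus strand), had the lowest fold change. CPM was 8.39, 8.31 and 11.47 in CT-WD and 8.33, 6.70, 6.89 and 6.19 in OE-WD. OE-WD 1 lay just inside the CT-WD range, and CT-WD 3 lay above every other library of the series. The log2 fold change was -0.42 (SE 0.158, edgeR adjusted p = 0.203), and -0.25 without CT-WD 3.

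Mrpl27, homologue of the bacterial L27 that reaches into the peptidyl transferase centre, had 18.7, 20.0 and 22.3 CPM in CT-WD and 15.8, 17.3, 16.6 and 12.9 in OE-WD. The groups did not overlap, and the lowest value was that of OE-WD 4. Its log2 fold change was -0.37 (SE 0.155, edgeR adjusted p = 0.238).

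For Mrpl21, homologue of bacterial L21, CT-WD libraries stood at 29.6, 32.6 and 32.4 CPM and OE-WD libraries at 29.5, 26.1, 24.2 and 20.4. The highest OE-WD and the lowest CT-WD library differed by very little. The log2 fold change was -0.33 (SE 0.111, edgeR adjusted p = 0.153).

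At the other end, 5 members had a higher mean in OE-WD. These were Mrpl19 (log2 fold change 0.12), Mrpl10 (0.11), a protein of the stalk that recruits translation factors, Mrps2 (0.088), Mrpl44 (0.025), a protein with a ribonuclease III fold whose variants cause cardiomyopathy in humans, and Mrpl57 (0.020). For Mrpl19, CT-WD libraries stood at 11.97, 11.5 and 12.3 CPM and OE-WD libraries at 12.6, 13.7, 11.3 and 14.2. The groups overlapped, as they did for Mrpl10 and Mrps2, and none of these 5 passed an unadjusted p of 0.05. Mrpl19, Mrpl10 and Mrps2 followed the other members least across the 14 libraries, but that correlation holds these same group differences and is no second observation. After group means were removed, Mrps18b (-0.0655) and Mrpl16 (-0.0549) were lowest. Mrpl19, Mrpl10 and Mrps2 then stood at 0.142, 0.105 and 0.161.

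**Figure D4:**
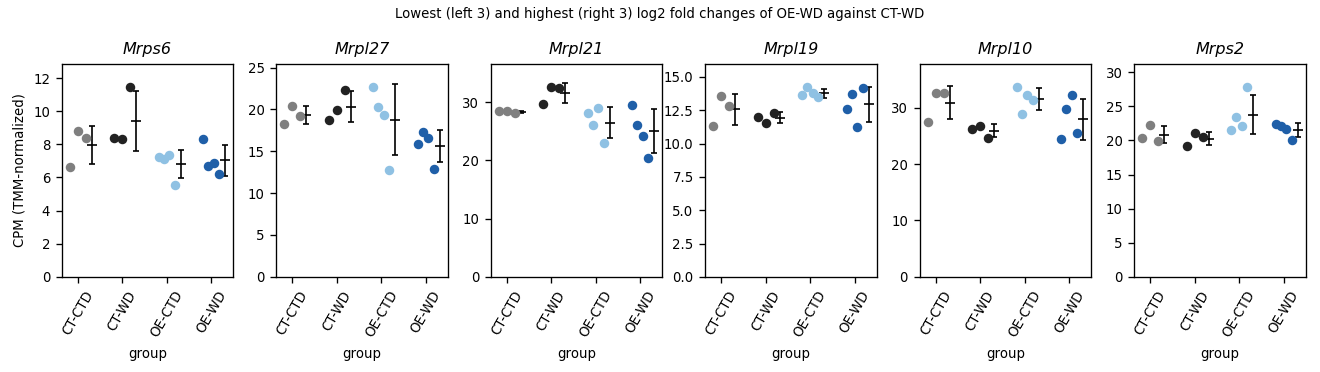
TMM-normalized CPM of the 3 members with the lowest (Mrps6, Mrpl27, Mrpl21) and the 3 with the highest log2 fold change (Mrpl19, Mrpl10, Mrps2) in OE-WD against CT-WD, with a point for each library and group mean and SD beside. For Mrpl27 the OE-WD values (12.9 to 17.3) lie below those of CT-WD (18.7 to 22.3), and for Mrpl19 the groups overlap.

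All classes shared the direction. The median log2 fold change was -0.22 in the large-subunit homologues of bacterial proteins (29 of 31 lower, 16 at an unadjusted p under 0.05), -0.23 in the mitochondria-specific large-subunit genes (17 of 19 lower, 6 at that p), -0.21 in the small-subunit homologues (16 of 17 lower, 6) and -0.13 in the mitochondria-specific small-subunit genes (9 of 9 lower, 0). Differences between classes were not tested. Among genes listed for their role, Mrpl12 (-0.26) and Mrpl11 (-0.23), parts of the stalk and its base, Mrps12 (-0.30), in the decoding centre, Mrps16 (-0.25), Mrpl45 (-0.24) and Mrpl58 (-0.25), a peptidyl-tRNA hydrolase that rescues stalled ribosomes, had lower means in OE-WD, with edgeR adjusted p from 0.241 for Mrps16 to 0.352 for Mrpl45. Mrpl3 (-0.024), Mrps22 (-0.016) and Mrps30 (-0.087) were near level. The paralogues of bacterial S18 had -0.24 for Mrps18a, which sits in the large subunit, -0.16 for Mrps18b and -0.24 for Mrps18c. Mrps36, no mitoribosome subunit in structures, had -0.17 (edgeR adjusted p = 0.343), close to the median of the members.

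The result depended on the libraries of CT-WD. Without CT-WD 1, 22 members had an edgeR adjusted p under 0.05, all lower in OE-WD, in a fit that called 9.47% of genes, and the members' median was -0.28. The smallest adjusted p was then 0.0105, for Mrpl23 (log2 fold change -0.43), and Mrpl13 (-0.37), Mrpl11 (-0.36) and Mrps18a (-0.34) were among the 22. Without CT-WD 1, 45 members were lower at an unadjusted p under 0.05, against 12.2% of all tested genes. Without CT-WD 3, the median was -0.13, 65 members were lower and only 4 of 77 were lower at that p, a share near the 4.46% of all tested genes. Without CT-WD 2 that number was 15, against 6.13% of all tested genes. Without OE-CTD 4 and OE-WD 4, an alternative chosen after the data were seen, the median was -0.20 and 24 members were lower at that p (9.16% of all tested genes). The direction of the median held in each case.

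CT-WD 1, whose identifier stands apart from those of CT-WD 2 and CT-WD 3, also differed from them in genes of other tissues, each list read by the same median as the members. Tendon genes (7 of 7 detected) stood at 0.93 in CT-WD 1 against -1.97 and -2.35, epidermis genes (8 of 8) at 1.99 against -1.34 and -0.93, adipocyte genes (8 of 8) at 0.57 against -0.99 and -1.47, and macrophage genes (10 of 10) at 0.73 against -0.22 and -0.51. In OE-WD the summed CPM of the tendon list ranged from 305 to 857, against 84.6 to 484 in CT-WD, and that of the 12 endothelial genes from 624 to 654, against 521 to 586. Skeletal muscle genes (14 of 14) stood at -0.09 in CT-WD 1, against 0.25 and 0.14. The ranges were 17.0 to 129.8 against 9.28 to 95.8 for epidermis, 235 to 328 against 264 to 407 for adipocytes, 85.3 to 140.2 against 59.2 to 143 for macrophages and 153220 to 212850 against 162620 to 199430 for skeletal muscle. No listed gene of these was at 0 in all libraries. The part of these differences in the members' values was not tested.

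Diet in the EC-Myc OE mice was compared as OE-WD against OE-CTD. Here 73 of 77 members had a lower mean on WD (48.6% of all tested genes did), with a median log2 fold change of -0.11 against 0.0048 over all genes. Lower means were also found for 78 of 91 cytosolic ribosomal protein genes (median -0.13). The same held for 87 of 91 nuclear oxidative phosphorylation genes (median -0.17). No member passed an adjusted p of 0.05, where 0.00647% of all tested genes did, and every member's adjusted p was near 1. At an unadjusted p under 0.05, 6 members were lower (Mrpl52, Mrpl14, Mrpl43, Mrps34, Mrpl28 and Mrpl46; 2.27% of all tested genes were) and none higher (1.93%). OE-WD lay below OE-CTD without overlap for 5 members, Mrpl14, Mrpl28, Mrps16, Mrps7 and Mrps36, against 2.23% of all tested genes, and above it for none (1.84%). With the replicate number as a block, 14 members were lower at an unadjusted p under 0.05, as were 4.46% of all tested genes in that fit, and none passed adjustment. The replicate numbers of OE-WD and OE-CTD are not known to be pairs.

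Mrpl14 (chr17:45686322-45698495, plus strand) stood at 61.4, 54.3, 53.8 and 56.9 CPM in OE-CTD and at 46.8, 50.3, 44.8 and 50.2 in OE-WD. Every OE-WD library lay below every OE-CTD library. The log2 fold change was -0.24 (SE 0.0822, edgeR adjusted p = 0.9999). In OE-CTD it was also above the 49.6, 47.9 and 50.5 CPM of CT-CTD, with a log2 fold change of 0.20 (SE 0.0890, edgeR adjusted p = 0.288).

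Mrpl52, a mitochondria-specific large-subunit gene, had 25.3, 24.0, 20.4 and 24.7 CPM in OE-CTD, against 18.8, 19.3, 21.01 and 18.8 in OE-WD. OE-CTD 3 and OE-WD 3 crossed, and the other libraries separated. Its log2 fold change was -0.27 (SE 0.0932, edgeR adjusted p = 0.9999). Mrpl46 had the lowest log2 fold change of the members in this comparison (-0.32, SE 0.145), with 21.7, 20.9, 22.6 and 18.6 CPM in OE-CTD, against 20.3, 16.3, 16.3 and 13.98 in OE-WD. Mrpl46 and Mrps11 start head to head on chromosome 7 and overlap by 173 bases, 12.2% of the exonic bases of Mrpl46. Mrps11 had a log2 fold change of -0.11 in the same comparison (SE 0.127, edgeR adjusted p = 0.9999), with 16.9, 14.4, 18.4 and 13.4 CPM in the libraries of OE-CTD, against 16.5, 15.01, 15.2 and 11.97 in OE-WD.

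By class, 31 of 31 large-subunit homologues, 19 of 19 mitochondria-specific large-subunit genes, 14 of 17 small-subunit homologues and 8 of 9 mitochondria-specific small-subunit genes had lower means in OE-WD, with median log2 fold changes of -0.11, -0.11, -0.10 and -0.12. The members with a higher mean were small-subunit genes, namely Mrps27 (0.054), Mrps6 (0.042), Mrps12 (0.018) and Mrps9 (0.022).

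Diet in CT mice was compared as CT-WD against CT-CTD. The median log2 fold change was 0.054, against 0.0071 over all tested genes, and 55 of 77 members had a higher mean on WD (51.5% of all tested genes did). Higher means were also found for 79 of 91 cytosolic ribosomal protein genes (median 0.098). The same held for 85 of 91 nuclear oxidative phosphorylation genes (median 0.12). No member passed an adjusted p of 0.05 (smallest edgeR adjusted p = 0.646). At an unadjusted p under 0.05, 1 member was higher (Mrps28, 4.19% of all tested genes were) and 1 lower (Mrpl10, 3.09%). With the replicate number as a block these became 3 higher (6.32% of all tested genes were) and 1 lower (5.49%), none past adjustment. CT-WD lay above CT-CTD without overlap for 3 members (4.47% of all tested genes did), Mrpl35, Mrpl21 and Mrpl22, and below it for 1 (5.16% did), Mrpl10. The median log2 fold change was 0.13 without CT-WD 1, -0.022 without CT-WD 3 and -0.0076 without CT-CTD 1, so its direction rested on single libraries.

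Mrps28, a small-subunit gene (chr3:8802146-8923918, minus strand), had 35.9, 40.2 and 36.0 CPM in CT-CTD and 37.9, 47.3 and 49.1 in CT-WD. CT-WD 1 lay inside the CT-CTD range. The log2 fold change was 0.26 (SE 0.111, edgeR adjusted p = 0.646). Mrpl10 (chr11:97041560-97049213, plus strand) had the opposite sign, with 27.4, 32.6 and 32.6 CPM in CT-CTD and 26.2, 26.8 and 24.6 in CT-WD. Its groups did not overlap, by a small margin, and the log2 fold change was -0.25 (SE 0.111, edgeR adjusted p = 0.651). Mrpl58 had the highest log2 fold change (0.28, SE 0.134, edgeR adjusted p = 0.682), with 18.2, 22.1 and 23.9 CPM in CT-CTD and 20.7, 27.4 and 30.1 in CT-WD, which overlapped.

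On CTD, the members' median was near that of all genes. In OE-CTD against CT-CTD the median log2 fold change was -0.020 (-0.0007 over all tested genes), 47 of 77 members had a lower mean (50.1% of all tested genes did), and none passed an adjusted p of 0.05 (smallest edgeR adjusted p = 0.288, Mrpl14), where 2.67% of all tested genes did. Mrpl14 was the only member with an unadjusted p under 0.05, and it was higher, as were 9.22% of all tested genes at that p. It was also the only member without overlap on the higher side (8.73% of all tested genes), and 4 lay without overlap on the lower side (6.75%), Mrps14, Mrpl13, Mrpl50 and Mrps33. Mrps14 had 41.2, 38.6 and 44.2 CPM in CT-CTD and 38.6, 38.3, 35.5 and 34.8 in OE-CTD, with a log2 fold change of -0.17 (SE 0.0844, edgeR adjusted p = 0.353). Its highest OE-CTD and lowest CT-CTD library were level within rounding.

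The diet by genotype interaction asked whether the WD difference in EC-Myc OE mice was the same as in CT mice. Its median over members was -0.16 on the log2 scale, against -0.0057 over all tested genes, and it was negative for 72 of 77 members (50.9% of all tested genes). Related families had the same direction. The interaction was negative for 80 of 91 cytosolic ribosomal protein genes (median -0.22), 23 of them at an unadjusted edgeR p under 0.05. It was negative for 87 of 91 nuclear oxidative phosphorylation genes (median -0.29), 38 of them at that p. No member passed an adjusted p of 0.05 (smallest edgeR adjusted p = 0.825). At an unadjusted p under 0.05, 6 members were negative (Mrpl14, Mrps28, Mrpl52, Mrpl58, Mrpl43 and Mrpl54; 3.34% of all tested genes were) and none positive (2.57%). The number of negative members at that p was 16 with the replicate block (5.82% of all tested genes) and 26 without CT-WD 1 (5.56%), and it was 3 without CT-CTD 1 (3.56%), without CT-WD 3 (2.37%) or without OE-CTD 1 (2.68%). For Mrps28 the interaction was -0.42 (SE 0.147, edgeR adjusted p = 0.825), built from 0.26 in CT and -0.16 in EC-Myc OE. For Mrpl14 it was -0.39 (SE 0.126, edgeR adjusted p = 0.825), built from 0.16 and -0.24. For Mrpl58 it was -0.41 (SE 0.177, edgeR adjusted p = 0.834), built from 0.28 and -0.13. In none of the 5 comparisons did a member pass a 1.5-fold difference, which 9.6% of all tested genes did for diet in CT, 5.4% for diet in EC-Myc OE, 13.7% for genotype on CTD, 12.4% for genotype on WD and 13.3% for the interaction. The comparisons share groups, so their values are not independent of each other.

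**Figure D5:**
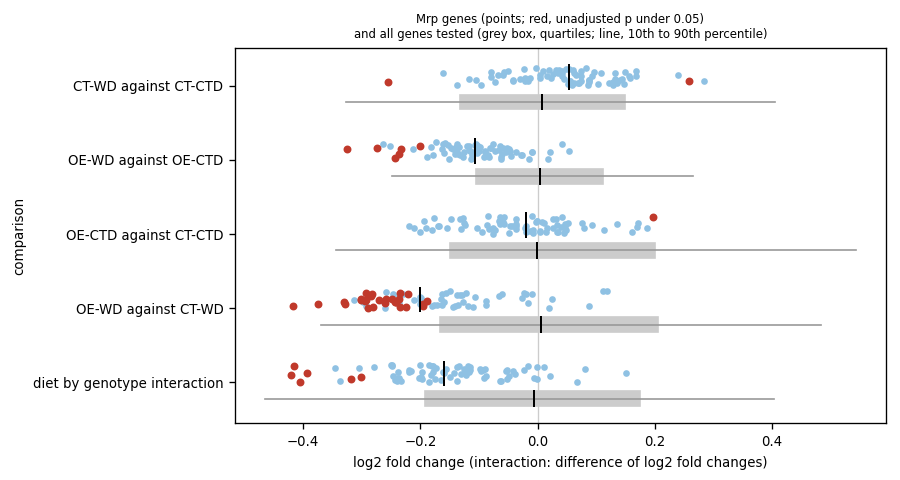
Log2 fold change of each of the 77 tested members (points, red at an unadjusted edgeR p under 0.05) in the 5 comparisons, with quartiles and the 10th to 90th percentile of all 15458 tested genes below. Member medians (black bars) lie at -0.20 for OE-WD against CT-WD and -0.02 for OE-CTD against CT-CTD.

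Long and short genes differed in the same comparisons. Over 15458 genes, Spearman's correlation of the log2 fold change with gene length was 0.203 in OE-WD against CT-WD, 0.205 in OE-WD against OE-CTD, -0.101 in CT-WD against CT-CTD and -0.00862 in OE-CTD against CT-CTD, and over the members of OE-WD against CT-WD it was 0.211. Members are short, with a median length of 2255 bases against 4010 over all tested genes. The part of length in the members' values was not tested.

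Other genes of the pathway and of the pathways on either side were read from lists in the same way, here for OE-WD against CT-WD. The 5 mitoribosomal proteins with other symbols were all lower (median log2 fold change -0.18), among them Dap3 (-0.16, edgeR adjusted p = 0.260), a GTP-binding protein of the small subunit. Of 26 genes for mitoribosome assembly and ribosomal RNA modification, 16 were lower with a median of -0.06. Malsu1, which keeps the unfinished large subunit from joining the small one, had -0.36 (edgeR adjusted p = 0.0881). Of 17 mitochondrial translation factors, 11 were lower (median -0.08), and Oxa1l, which inserts the translated proteins into the inner membrane, had -0.16 (edgeR adjusted p = 0.279). Members therefore had a lower median than the factors that build and serve the mitoribosome, a difference that was not tested.

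Cytosolic ribosomal protein genes had a median of -0.30, with 83 of 91 lower, 62 of these at an unadjusted p under 0.05, and 6 fell at an edgeR adjusted p under 0.05 (Rps15a, Rpl27a, Rpl9, Rpl23, Rpl5 and Rpl21). The symbol rule for that list also takes 10 genes of S6 kinases and a binding protein, and the 81 others had a median of -0.31 with 77 lower. Nuclear oxidative phosphorylation genes had a median of -0.20, with 84 of 91 lower, 38 of them at that unadjusted p, and 1, the ATP synthase subunit gene Atp5l, fell (log2 fold change -0.54, edgeR adjusted p = 0.0325). The 13 protein genes of mitochondrial DNA, whose mRNAs mitoribosomes translate, had a higher mean in OE-WD in 12 cases (median 0.22), with 2 of the 4 OE-WD libraries, OE-WD 1 and OE-WD 4, above every CT-WD library. None of these 13 passed an adjusted p of 0.05 (smallest edgeR adjusted p = 0.186).

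Members were also split by promoter letters, and differences between the medians were not tested. In OE-WD against CT-WD the 25 tested members with the ETS letters had a median log2 fold change of -0.24 and the 43 without them -0.19. The 5 with an E-box had -0.24 and the 63 without -0.20. The 8 with the YY1 letters had -0.19 and the 60 without -0.20. Only 3 had the NRF1 letters, with a median of -0.14 against -0.20 in the 65 without. Of the genes printed above with ETS letters, Mrpl43 (-0.29), Mrpl48 (-0.27), Mrpl17 (-0.24) and Mrpl52 (-0.24) had lower means in OE-WD. Mrps22 (-0.016) and Mrps27 (-0.020) were near level with the same letters. Mrpl34 (-0.29) and Mrpl22 (-0.26), whose stretches are not printed, also had lower means. Mrpl2 and Mrpl20 had -0.06 and -0.28 with the same E-box letters.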

How the data were processed

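RNA-seq was compared in 14 libraries of 4 groups as labelled. The authors deposited raw counts per Ensembl gene and FPKM values, in which counts are scaled by gene length and by a library total equal to 79.93% to 97.97% of the summed counts. The submitters' processing notes name HISAT2 2.0.5, featureCounts 1.5.0-p3 and mm10. The strand setting is not given in the sources used here. Of 54495 identifiers shared with GENCODE M21 (GRCm38), 98.3% had identical positions.

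Counts were tested with edgeR 4.0.16 (R 4.3.3) by the quasi-likelihood test, with TMM normalization and filterByExpr (count minimum 10), with 1 coefficient per group, and p-values were adjusted by Benjamini-Hochberg over 15458 genes in each of 5 comparisons. CPM are TMM-normalized, and log2 CPM used a prior count of 2. The filter removed 0.0467% to 0.0694% of counts. Libraries held 21833839 to 28519159 counts, and the biological coefficient of variation was 17%. The tests were also run on simulated counts, drawn independently for each gene and library. Those counts lack the shared movement of members described above, so the run cannot show how the tests behave under it. Alternatives were DESeq2 1.42.0, RLE size factors, no filter, fits of the compared groups only, limma 3.58.1 on log2(FPKM + 1) and log2(FPKM + 0.1), a replicate block, and leaving out each library. Another 2 were chosen after the data were seen, leaving out OE-CTD 4 with OE-WD 4, and leaving out the 13 protein genes of mitochondrial DNA.

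The members and lists were chosen with earlier results of these data known. The genes named are the 5 highest and 5 lowest by FPKM, in each comparison the 3 with the highest and the 3 with the lowest fold change, those with the smallest p or without overlap between groups, the member that failed the filter, members listed for their role, and in other lists the genes past an adjusted p of 0.05 or with the smallest p; not all of these are given with values. Genes shown for their promoter, for a head-to-head overlap or for a correlation were chosen after their values were seen. Replicate libraries differed by more than sampling noise (chi-square per degree of freedom 7.808 to 50.8). Pairs among OE-CTD 1 to 3 gave 7.808 to 10.57 and among OE-WD 1 to 3 gave 8.522 to 15.21. Pairs with OE-CTD 4 gave 36.98 to 43.01 and with OE-WD 4 38.89 to 42.76. CT-CTD pairs gave 16.81 to 27.03 and CT-WD pairs 29.69 to 50.8. Whether the closer libraries are separate animals is not given, and the tests estimated each gene's spread over all groups together. Deviations from group means of libraries with the same replicate number correlated at 0.385, 0.123 and 0.203 between CT-WD and CT-CTD. From this check alone these numbers were read as pairs, which entered only the replicate block. The main tests used no pairs. The identifiers of both libraries numbered 1 stand apart from the other CT libraries, and those of the other 4 run in sequence within a diet group. Between OE-WD and OE-CTD, deviations of libraries with the same number correlated at 0.0711, 0.138, 0.142 and 0.338. These numbers were not read as pairs, although the replicate block held them too.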

Additional observations from a re-analysis of the deposited data

Results flagged for a closer look

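Mrps6 in OE-CTD 4 stood at 5.56 CPM, away from the other OE-CTD libraries at 7.13 to 7.34 CPM. The gap was 0.88 of the range of the group. Of 78 groups of 4 libraries examined in this way 1 was marked, where chance marks about 1 in 20. OE-CTD 4 also held the highest share of counts from protein genes of mitochondrial DNA (14.7%), and the part of this in the value of Mrps6 was not tested.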

How the results depend on the processing

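No member passed an adjusted p of 0.05 in any of the 5 comparisons under DESeq2, RLE size factors, no filter, fits of the compared groups, limma on log2 FPKM, the replicate block or the 2 alternatives chosen after the data were seen. Leaving out single libraries gave 0 such members except in OE-WD against CT-WD (0 to 22, the 22 without CT-WD 1). Median log2 fold changes then ranged from -0.022 to 0.13 in CT-WD against CT-CTD, -0.13 to -0.09 in OE-WD against OE-CTD, -0.08 to -0.0034 in OE-CTD against CT-CTD, -0.28 to -0.13 in OE-WD against CT-WD and -0.23 to -0.09 for the interaction. Members at an unadjusted p under 0.05 ranged from 0 to 9, 3 to 10, 0 to 2, 4 to 45 and 3 to 26 in the same order. These numbers moved by over 1.5 times in the fits below, given with shares of all tested genes. In the first the number was 1 without CT-CTD 2 (2.87% higher, 2.15% lower) and 9 without CT-WD 1 (6.05%, 6.04%). It was 1 without CT-WD 2 (4.83%, 2.56%) and 0 without CT-WD 3 (2.84%, 2.24%). The second gave 3 without OE-CTD 1 and 10 without OE-CTD 4, all lower (1.52% and 2.99%). The third gave 0 without CT-CTD 3 (6.89% higher, 4.72% lower) or OE-CTD 4 (9.85%, 8.06%). It gave 2 without CT-WD 1 (10.1%, 7.16%), OE-CTD 1 (8.5%, 5.75%) or OE-CTD 3 (7.34%, 5.63%). The fourth gave 45 without CT-WD 1, 15 without CT-WD 2 and 4 without CT-WD 3, all lower (12.2%, 6.13% and 4.46%). The interaction gave 3 without CT-CTD 1, CT-WD 3 or OE-CTD 1 and 26 without CT-WD 1, all negative (3.56%, 2.37%, 2.68% and 5.56%).

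Fits of the compared groups alone gave 1 such member, lower, in CT-WD against CT-CTD (2.09% of all tested genes). They gave 10 in OE-WD against OE-CTD, all lower (3.32%). The replicate block gave 4 in the first, 3 higher (6.32%) and 1 lower (5.49%), and 14 in the second, all lower (4.46%). It gave 16 for the interaction, all negative (5.82%), and changed no adjusted call. In OE-CTD against CT-CTD the number was 0 with no filter (6.29% of all genes higher, 4.37% lower). It was also 0 without OE-CTD 4 and OE-WD 4 (10.2%, 9.21%). In OE-WD against CT-WD, Mrpl3 (-0.024) had 0.023 under the block and 0.015 without those 2 libraries, and Mrps22 (-0.016) had 0.026 and 0.053. Leaving out single libraries turned the sign of Mrpl41 in CT-WD against CT-CTD (-0.26 to 0.020), of Mrps6 (-0.050 to 0.098) and Mrps9 (-0.028 to 0.090) in OE-WD against OE-CTD, of Mrpl3 (-0.078 to 0.046), Mrpl44 (-0.050 to 0.10), Mrps22 (-0.075 to 0.056) and Mrps30 (-0.14 to 0.018) in OE-WD against CT-WD, and of Mrpl36 in the interaction (-0.017 to 0.19). The cause was not tested. In the main fit, with 3 or 4 libraries a group, the differences of all members were under 1.5-fold. A member not called there is not shown to be unchanged.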

Other observations

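Regulators of mitochondrial transcription and biogenesis (14 tested) showed no common direction, with 8 higher and 6 lower in OE-WD against CT-WD (median log2 fold change 0.04). In CT-WD against CT-CTD, Ppargc1a, a coactivator of mitochondrial biogenesis, had a log2 fold change of 0.97 (SE 0.294, edgeR adjusted p = 0.507). In OE-CTD against CT-CTD, endothelial markers had a higher mean in 12 of 12 cases (median 0.30), as did macrophage markers in 10 of 10 (median 0.87), tendon markers in 7 of 7 (median 1.67) and slow fibre genes in 9 of 9 (median 0.27), against 7713 of all 15458 tested genes. Among the 12 endothelial markers, Tek, an angiopoietin receptor, rose (log2 fold change 0.52, edgeR adjusted p = 0.0232). In OE-WD against CT-WD, 8 of the 12 endothelial markers had a higher mean and 4 a lower one, and Cdh5, the gene whose promoter drives the transactivator, rose (0.46, edgeR adjusted p = 0.0322). Of the 14 skeletal muscle genes, 7 had a higher and 7 a lower mean in OE-CTD against CT-CTD (median 0.0052), and Myod1, a muscle transcription factor, fell (-0.69, edgeR adjusted p = 0.0346).

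Of 5 pseudogenes whose symbols match the members' pattern, Mrpl48-ps had 61 to 128 counts a library and Mrps36-ps3 had 0 in all libraries. Reads shared between Mrpl48 and its copy cannot be told apart in gene counts.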
